A study of Mus musculus with 14 samples.

Results

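The Myc, Max and Mxd network is a set of transcription factors that pair through a basic helix-loop-helix leucine zipper, and 8 of its genes were examined here: the activators Myc and Mycn, their partner Max, the repressors Mxd1, Mxd4, Mxi1 and Mnt, and Mlx. The genes were chosen by name, and each was read from its brightest probe set, the one with the highest mean over all arrays. All 8 were among the 11817 genes tested. RNA from 14 mouse samples had been hybridised to Affymetrix expression arrays. Of the samples, 12 were osteosarcomas and 1 carried the label rhabdomyosarcoma (a muscle-lineage sarcoma, called here the labelled rhabdomyosarcoma), all from mice carrying a single working copy of the p53 tumour suppressor gene (p53+/-). The control was 1 array of mc3T3, an untreated, non-tumorigenic mouse osteoblast line grown in alpha-MEM with 10% fetal bovine serum. The sources used here give no strain, sex or age of the mice. The titles of the osteosarcomas start with m (6 tumours), c (4) or o (2), letters that the labels do not explain. Tumour numbers follow accession order and serve as names only.

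Max pairs with Myc or Mycn to bind a short DNA motif, the E-box CACGTG, and to recruit histone acetyltransferase complexes that raise transcription of genes for ribosome production and growth. The Mxd proteins, Mxi1 (a member of the same family) and Mnt pair with Max at the same motif and recruit the Sin3 histone deacetylase complex, which lowers transcription. Mlx pairs with the glucose-sensing Mondo proteins and with some of the repressors, and so links the network to nutrient supply. Myc is a well-known oncogene in osteosarcoma, and Mycn is one in neuroblastoma and in some rhabdomyosarcomas.

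Several network genes carry the E-box at their own start. RefSeq promoter windows (assembly GRCm38.p6) that run from 250 bases before to 50 bases after the start were matched for 7 of the 8 genes, all but Myc. The motif, searched as CACGTG, reads the same on both strands. It stood in the windows of Max, Mxd4, Mnt and Mlx. It was not found in the window of 300 bases of Mycn or Mxd1, nor in the several windows of Mxi1. Of all 32851 windows of this length in the table, 2349 (7.15%) held it. Counted by gene, the motif stood in 2187 of 27025 (8.09%). The 30 bases around each match are shown on the gene's strand. The E-box, the letters that Max-containing pairs recognise, is in capitals.
Max, chr12:76962234-76962263, minus strand: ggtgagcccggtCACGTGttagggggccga
Mxd4, chr5:34187912-34187941, minus strand: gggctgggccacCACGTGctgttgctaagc
Mnt, chr11:74830789-74830818, plus strand: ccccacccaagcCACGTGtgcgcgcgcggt
Mlx, chr11:101087238-101087267, plus strand: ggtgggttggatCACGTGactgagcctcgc
The first base of the motif lay 3 bases before the start of Max, 40 before Mlx, 123 before Mnt and 219 before Mxd4. A match describes these letters only, and binding was not measured.

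Signals below are array intensities in scaled units, in which every array had the same trimmed mean. Levels were not compared between genes, because each probe set has its own response. A difference is given on the log2(signal + 30) scale with its standard error, from limma fitted over all genes tested, with p-values adjusted by the Benjamini-Hochberg method. A gene was called when its adjusted p was under 0.05 and its difference at least 1. Whether each osteosarcoma is from its own mouse is not in the labels, so p-values measure the spread between these samples. The mc3T3 line and the labelled rhabdomyosarcoma are 1 array each, and limma takes each to vary as an osteosarcoma does. For a single value, the smallest exact permutation p that 1 array against 12 can give is 0.0769. The comparisons with these arrays share the osteosarcomas. No detection calls were used, so background and low expression cannot be told apart.

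The array signals by sample are plotted for each gene.

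**Figure D1:**
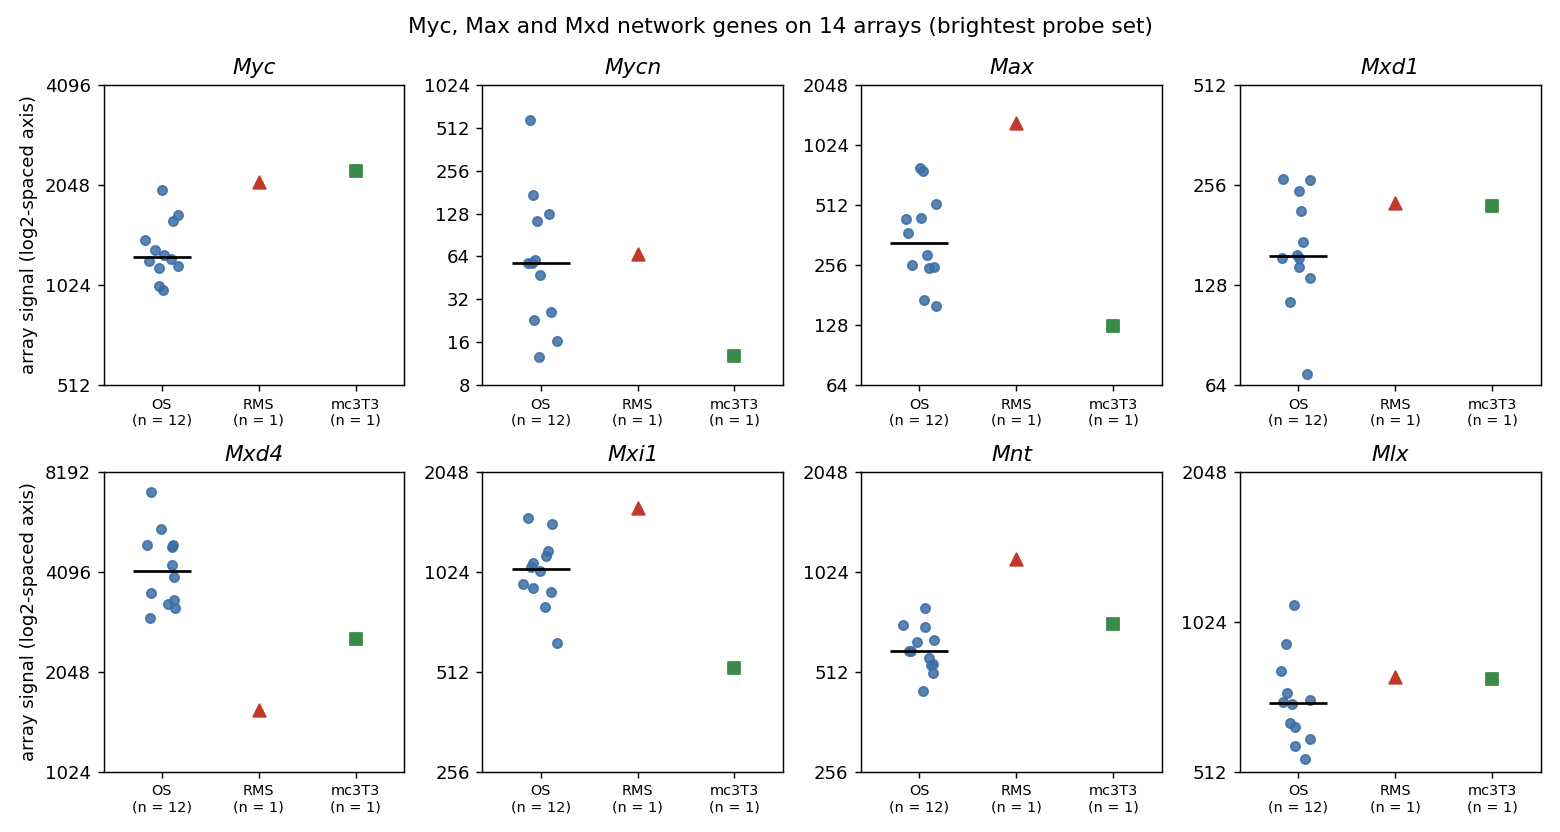
Signal of the brightest probe set of each of the 8 network genes (vertical axis, scaled array units on a log2-spaced axis) in the 12 osteosarcomas (blue points, with their median as a line), the labelled rhabdomyosarcoma (red triangle) and mc3T3 (green square). Mycn in osteosarcoma 7 stands at 580 while the other osteosarcomas lie between 12.6 and 174, and both Myc values outside the osteosarcomas, 2086 and 2257, lie above all 12.

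Myc, the activator best known from bone tumours, was at a narrow level in the osteosarcomas and higher in both other samples. Its signal had a lowest value of 991 (osteosarcoma 12), a median of 1245 and a highest of 1981 (osteosarcoma 1), with a mean of 1330 ± 288 (SD, n = 12). It was 2086 in the labelled rhabdomyosarcoma and 2257 in mc3T3. All 12 osteosarcomas were thus below both other arrays, the nearest by a small margin. The osteosarcomas were below mc3T3 by -0.78 ± 0.33 (adjusted p = 0.145), and the labelled rhabdomyosarcoma was above them by 0.66 ± 0.33 (adjusted p = 0.352). Neither passed the test. The unadjusted p-values by limma were 0.0352 and 0.066. The SD of Myc across osteosarcomas was 0.29 on the log2 scale, at percentile 16.1 of the genes tested, whose median SD was 0.43.

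Mycn, a Myc paralogue best known from embryonic tissue, was low in most samples and high in a single tumour. Its signals in osteosarcomas 1 to 12 were 60.2, 25.9, 23.0, 12.6, 58.0, 114, 580, 57.9, 128, 174, 47.5 and 16.3. It was 66.8 in the labelled rhabdomyosarcoma and 12.8 in mc3T3. Osteosarcoma 7 was the only array on which it reached a signal of 200, so Mycn entered the test through that tumour alone. The median of the osteosarcomas was 58.0, and their SD of 1.09 on the log2 scale stood at percentile 94.6 of the genes tested. Osteosarcoma 7 was 2.80 above the median of the other osteosarcomas on that scale. The osteosarcomas differed from mc3T3 by 1.21 ± 1.01 (adjusted p = 0.472), a value that moved to 2.13 with a pseudocount of 1 and to 0.67 with a pseudocount of 100, and the labelled rhabdomyosarcoma from the osteosarcomas by -0.03 ± 1.01 (adjusted p = 0.992). The other 2 Mycn probe sets reached 200 on no array and were not tested. In osteosarcoma 7 they read 80.2 and 35.4. Their highest osteosarcoma values were 90.2 in osteosarcoma 2 and 122 in osteosarcoma 8. The high Mycn value of osteosarcoma 7 thus rests on the brightest probe set alone.

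Max, the partner that Myc and Mycn need for DNA binding and with which the repressors also pair, varied widely among osteosarcomas. Its signals in osteosarcomas 1 to 12 were 160, 288, 438, 257, 369, 520, 789, 434, 171, 246, 755 and 249, with a median of 329 and a mean of 390 ± 210 (SD, n = 12). It was 1319 in the labelled rhabdomyosarcoma and 126 in mc3T3. All 12 osteosarcomas lay between these arrays. The labelled rhabdomyosarcoma was above them by 1.84 ± 0.66 (adjusted p = 0.174; unadjusted p by limma = 0.0142), and the osteosarcomas were above mc3T3 by 1.27 ± 0.66 (adjusted p = 0.231). Neither passed the test. Max and Myc each have a single named probe set, so no other probe set could be set beside these values.

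Osteosarcoma 1 had the highest Myc and the lowest Max of the osteosarcomas, while osteosarcoma 7 had the highest Mycn and the highest Max.

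Mxd1, a repressor induced as cells leave the cycle and differentiate, overlapped between groups. Its osteosarcoma signal ran from 69.3 (osteosarcoma 12) through a median of 156 to 267 (osteosarcoma 4), and it was 226 in the labelled rhabdomyosarcoma and 221 in mc3T3. It reached 200 on 6 arrays, and its other 2 probe sets on none. In osteosarcoma 12 those were at their highest osteosarcoma values (135 and 33.6), opposite to the brightest. The osteosarcomas differed from mc3T3 by -0.36 ± 0.47 (adjusted p = 0.661), and the labelled rhabdomyosarcoma from the osteosarcomas by 0.39 ± 0.47 (adjusted p = 0.741).

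Mxd4, a repressor of the same family, was lowest in the labelled rhabdomyosarcoma. Its osteosarcoma signal ran from 2981 (osteosarcoma 1) through a median of 4129 to 7100 (osteosarcoma 7), with a mean of 4328 ± 1207 (SD, n = 12), against 1566 in the labelled rhabdomyosarcoma and 2565 in mc3T3. All 12 osteosarcomas were above both. Against the osteosarcomas, the labelled rhabdomyosarcoma stood at -1.40 ± 0.40 (unadjusted p by limma = 0.00334; adjusted p = 0.0816), the lowest adjusted p of the 8 genes in any comparison, and it did not pass the test. The osteosarcomas were above mc3T3 by 0.70 ± 0.40 (adjusted p = 0.279).

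The 3 tested Mxd4 probe sets put the labelled rhabdomyosarcoma on the same side but mc3T3 on opposite sides. The second brightest read 1071 to 2549 in the osteosarcomas, 757 in the labelled rhabdomyosarcoma and 686 in mc3T3. The third read 316 to 852 in the osteosarcomas, 270 in the labelled rhabdomyosarcoma and 920 in mc3T3, so all 12 osteosarcomas were below mc3T3 there. On these probe sets the osteosarcomas differed from mc3T3 by 1.02 ± 0.41 (adjusted p = 0.13) and -0.82 ± 0.42 (adjusted p = 0.234). The direction of Mxd4 against mc3T3 thus depends on the probe set, while the labelled rhabdomyosarcoma was below all 12 osteosarcomas on each of the 3. The remaining Mxd4 probe set reached 200 on no array and was not tested. It read 80.7 to 177 in the osteosarcomas, 88.9 in mc3T3 and 124 in the labelled rhabdomyosarcoma, above 9 of the 12.

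Mxi1, a Max-binding repressor related to the Mxd proteins, was lower in mc3T3 than in any osteosarcoma. Its osteosarcoma signal ran from 626 (osteosarcoma 10) through a median of 1044 to 1481 (osteosarcoma 11), with a mean of 1048 ± 243 (SD, n = 12). It was 527 in mc3T3 and 1590 in the labelled rhabdomyosarcoma, below and above all 12. The osteosarcomas were above mc3T3 by 0.92 ± 0.37 (unadjusted p by limma = 0.025; adjusted p = 0.117), which did not pass the test. Against them the labelled rhabdomyosarcoma was above by 0.62 ± 0.37 (adjusted p = 0.437). A second, dimmer Mxi1 probe set gave differences of 0.70 ± 0.53 and 0.86 ± 0.53, in the same directions, but its osteosarcoma range of 142 to 667 held both other arrays (579 and 177).

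Mnt, the most widely active Max-binding repressor and the usual counterweight to Myc, was the steadiest of the 8 genes across osteosarcomas. Its signal ran from 448 (osteosarcoma 3) through a median of 591 to 797 (osteosarcoma 5), with a mean of 604 ± 96.7 (SD, n = 12). Its SD of 0.22 on the log2 scale stood at percentile 4.4 of the genes tested. It was 1121 in the labelled rhabdomyosarcoma, above all 12, and 714 in mc3T3, above 11 of them. The labelled rhabdomyosarcoma was above the osteosarcomas by 0.88 ± 0.29 (unadjusted p by limma = 0.00858; adjusted p = 0.134), which did not pass the test. The osteosarcomas differed from mc3T3 by -0.25 ± 0.29 (adjusted p = 0.623).

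Mlx, the partner of the Mondo proteins, overlapped between all groups. Its osteosarcoma signal ran from 544 (osteosarcoma 7) through a median of 704 to 1105 (osteosarcoma 5), and it was 795 in the labelled rhabdomyosarcoma and 787 in mc3T3, each above 9 of the 12. The osteosarcomas differed from mc3T3 by -0.14 ± 0.33 (adjusted p = 0.825), and the labelled rhabdomyosarcoma from the osteosarcomas by 0.16 ± 0.33 (adjusted p = 0.867). A second Mlx probe set turned the first of these around, at 0.25 ± 0.37 (adjusted p = 0.729).

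No network gene passed the test in these comparisons. Of the 8, 0 were called between osteosarcoma and mc3T3, where limma called 1556 of 11817 genes (13.2%), 1015 higher and 541 lower in osteosarcoma. Of the 8, 0 were also called between the labelled rhabdomyosarcoma and the osteosarcomas, where it called 349 genes (2.95%), 141 higher and 208 lower. At an unadjusted p under 0.05, limma passed 2 members (Myc and Mxi1) in the first comparison and 3 (Max, Mxd4 and Mnt) in the second. Over all genes it passed 27.6% and 16% at that level. The median difference of the 8 was 0.28 in the first comparison and 0.51 in the second, beside -0.02 and 0.05 over all genes.

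The mc3T3 array lay outside the range of the 12 osteosarcomas for 4 of the 8 genes, above it for Myc and below it for Max, Mxd4 and Mxi1. The same held for 42.5% of all genes tested. The labelled rhabdomyosarcoma lay outside that range for 5 of the 8, above it for Myc, Max, Mxi1 and Mnt and below it for Mxd4. The same held for 30.7% of all genes.

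**Figure D2:**
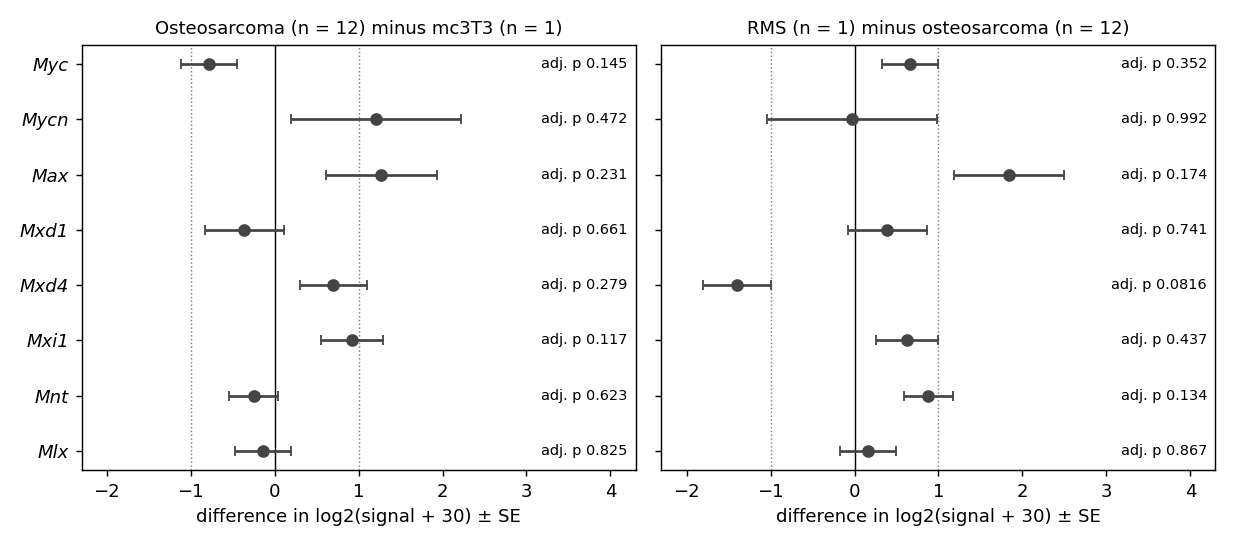
Difference of each of the 8 network genes on the log2(signal + 30) scale (horizontal axis) with its standard error (bars) for osteosarcoma minus mc3T3 and for the labelled rhabdomyosarcoma minus osteosarcoma, with adjusted p-values beside the points. Dotted lines mark differences of -1 and 1. Max and Mxd4 lie farthest from 0 for the labelled rhabdomyosarcoma, at 1.84 and -1.40, and the lowest adjusted p is 0.0816.

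The samples differ in the cells they hold, and in bulk RNA fewer cells of a type and less RNA per cell cannot be told apart. Against mc3T3, 15 of 17 macrophage, 10 of 10 endothelial and 10 of 10 osteoclast genes were called higher in osteosarcoma, and 0 of 4 lymphocyte genes. Of all 11817 genes, 1015 were called higher and 541 lower in that comparison. Most of the listed genes called higher were under 200 in mc3T3 and passed the filter only through tumours. Their counts are thus partly set by the filter. Summed levels here are means of log2 values centred on the osteosarcomas. The macrophage level was -5.60 in mc3T3, 0.99 in the labelled rhabdomyosarcoma and -0.98 to 0.76 in the osteosarcomas. The lymphocyte level was -0.47 in mc3T3, 2.21 in the labelled rhabdomyosarcoma and -0.95 to 1.36 in the osteosarcomas. Of its 4 tested genes, Cd3g reached 200 only in the labelled rhabdomyosarcoma (206), so the level there is partly set by the filter. In mc3T3, Ccl5 read 668 against an osteosarcoma median of 219. Nkg7, Gzma and Cd3g read 6.1, 32.1 and 1.6 in mc3T3, signals that cannot be told from background. Of 11 osteoblast and bone matrix genes, 6 were called higher in osteosarcoma than in mc3T3 and 1 lower, with a level of -2.94 in mc3T3 and -0.38 to 0.46 in the osteosarcomas. The mc3T3 line carried the osteoblast regulator Sp7 (signal 1515, against 1158 to 4132 in osteosarcomas) and the collagen gene Col1a1 (62260, against 30026 to 58684), was higher in the cadherin gene Cdh11 (34617, against 6832 to 14652), and had the late matrix gene Ibsp at 37.4 against 30210 to 49088. In the labelled rhabdomyosarcoma, 8 of these 11 genes and 8 of 10 osteoclast genes were called lower than in the osteosarcomas, with levels of -4.24 and -4.33. The same limit of the filter holds, and of all genes 208 were called lower in the labelled rhabdomyosarcoma. Its defining muscle genes read low: Myod1 at 39.4, Myog at 65.9 and Des at 88.6, and of 18 mature muscle genes and 7 myogenic genes 0 were called against the osteosarcomas by limma (0 of both lists at an unadjusted p under 0.05). The summed mature muscle level was -2.29 there, -3.30 in mc3T3 and -3.32 to 4.66 in the osteosarcomas. Beta-actin probe sets, a sign of RNA quality, had a 3' over 5' ratio of 1.42 to 2.13 in the osteosarcomas, 1.24 in the labelled rhabdomyosarcoma and 1.32 in mc3T3. The part of these differences in the values of the network genes was not tested.

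The osteosarcomas whose titles start with m and with c were compared as the only grouping of the osteosarcomas that the labels offer. Of the 8 genes, 0 were called, and limma called 2 of 11817 genes (0.0169%). Myc alone had an unadjusted p under 0.05 by limma, a level that 7.36% of all genes reached. It was lower in the m tumours by -0.43 ± 0.19 (unadjusted p by limma = 0.0394; adjusted p = 0.672). The other 7 genes had adjusted p-values between 0.819 and 0.998, and the median of the 8 was -0.19, beside -0.00 over all genes. Without 1 osteosarcoma at a time the Myc difference ran from -0.55 to -0.32. Of 18 mature muscle genes 0 were called, 11 had an unadjusted p under 0.05 by limma, and the median was 2.90 higher in m. Of 10 osteoclast genes 0 were called and 5 had an unadjusted p under 0.05 by limma, with a median of 0.50 higher in m. The summed mature muscle level was -1.11 to 4.66 in the m tumours and -3.10 to 0.31 in the c tumours. The part of these cells in the Myc value was not tested.

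Other genes of the pathway were read from lists. Of 5 further network genes, 3 were tested and 0 were called in either comparison (1 and 0 at an unadjusted p under 0.05 by limma, here and for the lists below in the order mc3T3, labelled rhabdomyosarcoma). Mxd3, a repressor active in dividing cells, was 167 to 499 in the osteosarcomas with a median of 241, 168 in the labelled rhabdomyosarcoma and 531 in mc3T3. All 12 osteosarcomas were below mc3T3 (-1.02 ± 0.45, adjusted p = 0.156). Mlxip, a Mondo protein that pairs with Mlx, was 588 to 1285 in the osteosarcomas with a median of 883, 716 in the labelled rhabdomyosarcoma and 1342 in mc3T3. It too was below mc3T3 in all 12 (-0.59 ± 0.37, adjusted p = 0.33). Mga, which pairs with Max in a repressor complex, was 397 to 1081 in the osteosarcomas, 987 in the labelled rhabdomyosarcoma and 538 in mc3T3, within the osteosarcoma range in both.

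The complexes that Myc recruits showed no called gene. All 12 coactivator genes were tested and 0 were called in either comparison (2 and 1 unadjusted by limma), with a median of -0.17 for osteosarcoma against mc3T3 and 0.49 for the labelled rhabdomyosarcoma against osteosarcoma. Of the 12, 7 were below 0 in the former and 10 above 0 in the latter, and the share of all genes on each side of 0 is not given here. Kat5, the acetyltransferase of the TIP60 complex, was 542 to 1042 in the osteosarcomas, 1225 in the labelled rhabdomyosarcoma and 1401 in mc3T3, both above all 12. The osteosarcomas stood at -0.89 ± 0.30 against mc3T3 (adjusted p = 0.069). Ruvbl1, an ATPase of the same complex, was 1046 to 1995 in the osteosarcomas, 2090 in the labelled rhabdomyosarcoma and 2611 in mc3T3 (-0.88 ± 0.33, adjusted p = 0.0943). These 2 genes were picked for their values.

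Of the Sin3 corepressor genes that the Mxd proteins recruit, 11 were tested, and 1 rose and 1 fell between mc3T3 and osteosarcoma, where 13.2% of all genes were called. Sap30, a subunit that stabilises the complex, had a signal of 940 to 1651 in the osteosarcomas with a median of 1293, 1386 in the labelled rhabdomyosarcoma and 279 in mc3T3. It rose by 2.08 ± 0.29 (adjusted p = 0.000245). The deacetylase Hdac2 had a signal of 1749 to 4242 in the osteosarcomas with a median of 2946, 1639 in the labelled rhabdomyosarcoma and 7036 in mc3T3. It stood at -1.29 ± 0.38 (adjusted p = 0.0381), a call lost in 5 of 21 alternative analyses, among them the one without osteosarcoma 3 (adjusted p = 0.0508), over which adjusted p ran from 0.0275 to 0.0843. The median of the list was -0.23. Against the osteosarcomas, 0 of the 11 were called in the labelled rhabdomyosarcoma (2 unadjusted by limma), with a median of 0.24. Its scaffold Sin3a was 1050 there against 359 to 733 in the osteosarcomas (0.99 ± 0.32, adjusted p = 0.127).

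Genes that control the stability of the Myc protein did not pass the test in either comparison: 14 were tested and 0 called (2 and 0 unadjusted by limma), with medians of 0.12 and -0.09. Among them the kinase Pim1 was 193 to 566 in the osteosarcomas, 678 in the labelled rhabdomyosarcoma and 171 in mc3T3, above and below all 12 (0.96 ± 0.47, adjusted p = 0.197, for osteosarcoma against mc3T3).

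Of 35 tested Myc targets, mostly genes of ribosome production, 1 rose, 1 fell and 33 were not called between mc3T3 and osteosarcoma, against 13.2% called of all genes, with a median of -0.13. Tfrc, the transferrin receptor that takes up iron, had a signal of 3118 to 11691 in the osteosarcomas with a median of 5993, 1595 in the labelled rhabdomyosarcoma and 1027 in mc3T3. It rose by 2.52 ± 0.58 (adjusted p = 0.00917). The nucleolar chaperone Nolc1 had a signal of 804 to 1424 in the osteosarcomas with a median of 1076, 1752 in the labelled rhabdomyosarcoma and 2674 in mc3T3. It fell by 1.31 (-1.31 ± 0.31, adjusted p = 0.0109). In the labelled rhabdomyosarcoma, 0 of the 35 targets were called (3 unadjusted by limma), with a median of -0.04. The lowest adjusted p was that of the cap-binding factor Eif4e, at 12964 against 4492 to 7823 in the osteosarcomas (1.08 ± 0.30, adjusted p = 0.0748). Summed over the list, the Myc target level was 0.05 in mc3T3, 0.03 in the labelled rhabdomyosarcoma and -0.21 to 0.19 in the osteosarcomas, so both arrays with higher Myc lay inside the osteosarcoma range.

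Of 20 tested cell cycle genes 0 were called in either comparison (0 and 0 unadjusted by limma). Their medians were -0.24 and 0.32, beside -0.02 and 0.05 over all genes. Of the 20, 16 were below 0 against mc3T3, 19 above 0 for the labelled rhabdomyosarcoma and 16 below 0 for m against c. The share of all genes on each side of 0 is not given here. Txnip, a glucose-induced target of the Mondo and Mlx pair, was the called gene of the 2 Mondo targets. Its signal was 2778 to 7042 in the osteosarcomas with a median of 4888, 8700 in the labelled rhabdomyosarcoma and 1225 in mc3T3, and it rose from mc3T3 to osteosarcoma by 1.96 ± 0.38 (adjusted p = 0.00314). Its relative Arrdc4 was 187 to 3912 in the osteosarcomas (1.12 ± 0.95, adjusted p = 0.478). Sap30, Tfrc, Nolc1 and Txnip stayed called under each of 21 alternatives. Between m and c tumours, 0 genes of these pathway lists were called by limma, and 3 of 97 had an unadjusted p under 0.05, beside 7.36% of all genes. Among the 3 was the Myc target Ccnd2, at 742 to 15262 in the osteosarcomas. It was higher in m by 2.13 ± 0.48 (unadjusted p by limma = 0.000663, adjusted p = 0.424) and was picked for its value.

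Across the 12 osteosarcomas, 49 relations were computed: each of the 8 genes with the summed levels of Myc targets, cell cycle, mature muscle, macrophage and bone matrix genes and with the beta-actin ratio, and Myc with Mycn. After adjustment, 0 of 49 had p under 0.05 by Pearson's r or by Spearman's rho, and 3 had an unadjusted Pearson p under 0.05 (100000 permutations, two-sided). The points share the platform, the scaling and, for list levels, the arrays on which the gene itself was read.

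The relation of Mycn with the macrophage level had r = -0.71 (permutation p = 0.00827, adjusted 0.239) and rho = -0.57 (permutation p = 0.0602, adjusted 0.618). Without the 2 tumours farthest from the median macrophage level r was -0.45, and without osteosarcoma 7, which had the highest Mycn and the lowest macrophage level, it was -0.51 (permutation p = 0.114). Within the 6 m tumours r was -0.44 (exact permutation p = 0.375). Outside osteosarcoma 7 every Mycn signal was under 200, where background cannot be told apart.

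The relation of Mxd4 with the bone matrix level had r = 0.71 (permutation p = 0.00975, adjusted 0.239) and rho = 0.70 (permutation p = 0.0145). The r was 0.66 without the 2 farthest tumours, 0.69 without osteosarcoma 7 and 0.53 within the m tumours (exact permutation p = 0.282). With the beta-actin ratio, the sign of RNA quality, Mxd4 had r = 0.41 (permutation p = 0.185, adjusted 0.868) and rho = 0.52, and r was 0.18 without the 2 farthest tumours and 0.77 without osteosarcoma 7 (permutation p = 0.00714, not adjusted). The part of RNA quality in the bone matrix relation was not tested. Mxd4 with the Myc target level had r = -0.63 (permutation p = 0.0285, adjusted 0.466) and rho = -0.57 (permutation p = 0.0538), but r was -0.29 without the 2 farthest tumours.

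Myc and the Myc target level had r = 0.49 (permutation p = 0.104, adjusted 0.729) and rho = 0.50 (permutation p = 0.0992). The value was 0.67 without the 2 farthest tumours and 0.73 without osteosarcoma 7 (permutation p = 0.00997, not adjusted). Within the m tumours it was 0.86 (exact permutation p = 0.0278, not adjusted). Mycn with the Myc target level had r = 0.07 over all 12 tumours and 0.68 without osteosarcoma 7 (permutation p = 0.0217, not adjusted), where every Mycn signal was under 200. Within the m tumours the same measure had r = 0.87 with Mycn and 0.86 with the repressor Mxd1 (exact permutation p = 0.0236 each, not adjusted). All Mycn signals and most Mxd1 signals in the m tumours were under 200, where background cannot be told apart. Myc had r = -0.50 with the beta-actin ratio (permutation p = 0.1, rho = -0.57) and 0.24 with the cell cycle level, and r = 0.33 with Mycn (permutation p = 0.287). None of these passed adjustment.

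**Figure D3:**
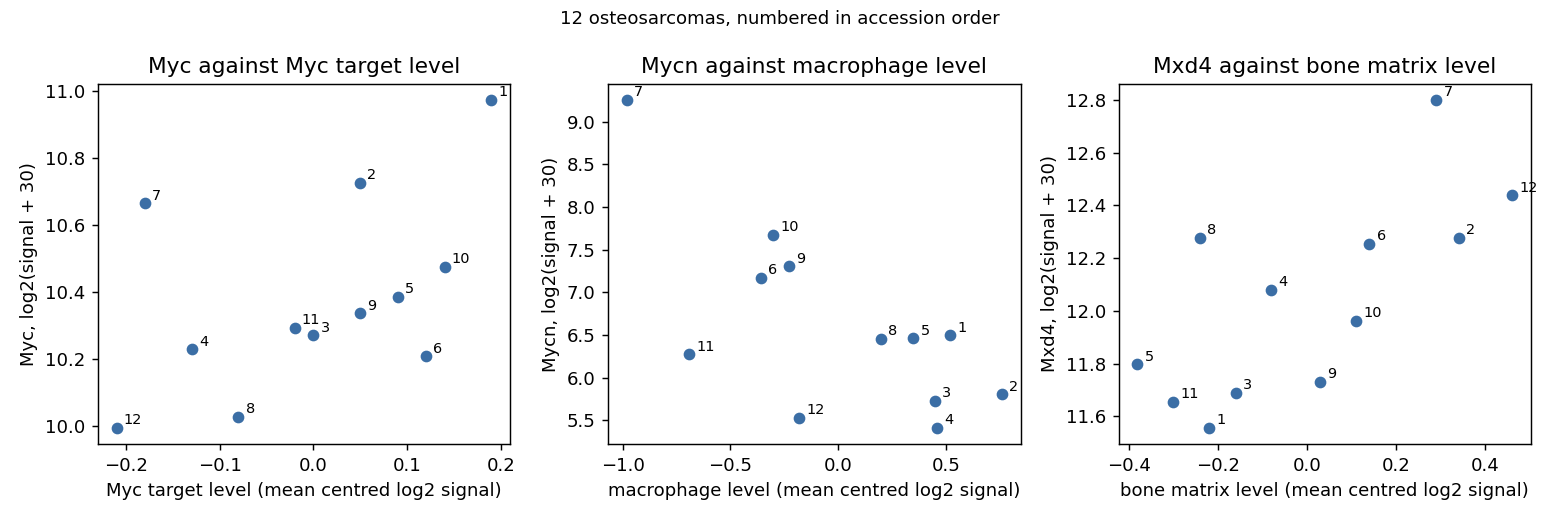
Levels on the log2(signal + 30) scale in the 12 numbered osteosarcomas: Myc against the Myc target level, Mycn against the macrophage level, and Mxd4 against the bone matrix level, with list levels centred on the osteosarcomas. Osteosarcoma 7 stands apart in Mycn at the lowest macrophage level of -0.98, while Mxd4 spreads along the bone matrix level with r = 0.71.

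Among the 28 pairs of the 8 genes themselves, 0 passed adjustment by Pearson's r or Spearman's rho. Mnt and Mlx had r = 0.61 (permutation p = 0.0333, adjusted 0.81) and rho = 0.40, and r was 0.25 without the 2 farthest tumours. Mxd1 and Mxi1 had rho = 0.75 (permutation p = 0.00665, adjusted 0.186) and r = 0.47.

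The genes whose pattern over the 12 osteosarcomas was most like that of Myc, by Pearson's r among genes with an osteosarcoma mean signal of at least 200, were Rrs1, a ribosome assembly factor that is also in the Myc target list (r = 0.94), Ywhag, a phosphoprotein adaptor (0.94), Usp22, a histone deubiquitinase (0.93), Eif3b, a translation initiation subunit (0.91), and 3110082I17Rik (0.90). All 5 were highest in osteosarcoma 1. Without that tumour r was 0.90 for Rrs1 and Ywhag, 0.88 for Usp22, 0.85 for Eif3b and 0.82 for 3110082I17Rik. For Mycn they were Phf2, a histone demethylase (0.94), Btbd3 (0.89), Phf20l1, a chromatin reader (0.89), Etl4 (0.86) and the zinc finger gene Zkscan8 (0.85), all highest in osteosarcoma 7. Without that tumour r was 0.86, 0.79, 0.80, 0.64 and 0.72 in the same order. These values describe a ranking of many genes over few tumours, and the Mycn signals outside osteosarcoma 7 were all under 200.

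The genes next to Mycn and Myc on the chromosome were read to place their levels. In osteosarcoma 7, Mycn was 2.80 above the median of the other osteosarcomas on the log2 scale. Its neighbour Vsnl1, a neuronal calcium sensor, was 1.52 above with a signal of 325, and the RNA helicase gene Ddx1, often gained together with Mycn in neuroblastoma, was 0.63 above with a signal of 5751. Both had their highest osteosarcoma value there. The share of all genes that were highest in osteosarcoma 7 is not given here, so these ranks have no background beside them. The other neighbours of Mycn, 4930511A02Rik, Tubb2a-ps2 and 4921511I17Rik, reached 200 on no array. Nbas was 0.60 above and Trib2 0.42 above, each the second highest of the 12, whereas Cyria (-0.12), Lratd1 (-0.05) and Lpin1 (-0.01) were near the median. Among the neighbours of Myc, Nsmce2, a SUMO ligase gene, was 0.81 above in the same tumour with its highest value (1739), and Pvt1 0.45 above, while Trib1 (-0.82) and Lratd2 (-1.27) had their lowest values there. Other network genes high in osteosarcoma 7 were Max at 1.37 and Mxd4 at 0.84 above the median of the others, both their highest values. Myc was 0.37 above, Mlx was -0.36 and Mnt -0.13. DNA copies were not measured.

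Next to Myc, Pvt1 was called against mc3T3, in a comparison where 13.2% of all genes were called. Pvt1, the long noncoding RNA gene beside Myc, had a signal of 322 to 695 in the osteosarcomas with a median of 488, 1071 in the labelled rhabdomyosarcoma and 1279 in mc3T3. Like Myc, it was below both other arrays in all 12 osteosarcomas. It stood at -1.36 ± 0.41 against mc3T3 (adjusted p = 0.0393), a call lost in 7 of 21 alternatives, including those without osteosarcoma 5 (adjusted p = 0.0506), 8 (0.0521) or 10 (0.0507), over which adjusted p ran from 0.0274 to 0.211. With the mean of all its tested probe sets the difference was -0.72 (adjusted p = 0.211). At Pvt1 the labelled rhabdomyosarcoma stood 1.11 ± 0.41 above the osteosarcomas (adjusted p = 0.186). Trib1, a pseudokinase gene, went the other way, at 84.6 to 232 in the osteosarcomas, 274 in the labelled rhabdomyosarcoma and 4.4 in mc3T3, a signal that cannot be told from background. Trib1 passed the filter on low signal only through tumour arrays, so its test is not given. Nsmce2 was 623 to 1739 in the osteosarcomas, 2152 in the labelled rhabdomyosarcoma and 783 in mc3T3, and Lratd2 was 48.2 to 234, 269 and 35.8. Neither was called. The other neighbours, 4933412E24Rik, 4930402D18Rik, Macroh2a3, Gm20740, 4930449C09Rik and 1700065I16Rik, reached 200 on no array. Next to Mycn, Trib2 was 738 to 1964 in the osteosarcomas, 833 in the labelled rhabdomyosarcoma and 4305 in mc3T3 (-1.66 ± 0.41, adjusted p = 0.014). Lratd1 was 630 in the labelled rhabdomyosarcoma and 1.5 to 35.5 in the osteosarcomas. It passed the filter on low signal only through that array, so its test is not given.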

How the data were processed

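Total RNA of the 14 samples was measured on 1 array each. The deposited values are the signal (intensity) of each of 45101 probe sets on a linear scale, made by the authors with GCOS (submitters' processing notes); the sources used here give no version, background step or probe-level summary. Array means trimmed by 2% at each end were all equal, and array medians were 67.1 to 111.1; the number of arrays limits the precision. Titles gave the groups, since mc3T3 stands in the description of every sample, tumours included. The highest correlation between arrays was 0.954, with 0 identical columns.

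From these values, log2(signal + 30) was taken without further scaling, and the added 30 understates changes of low genes. The test took probe sets reaching 200 on 1 array or more. Names came from the platform annotation, updated by Entrez identifier through RefSeq's gene table (assembly GRCm38.p6), which otherwise gave only neighbours; 34945 probe sets had 1 symbol, 932 several and 9160 none. A gene was its brightest tested probe set. Tests used limma 3.58.1 in R 4.3.3 (lmFit, eBayes, two-sided, Benjamini-Hochberg over 11817 genes; 3 groups, 11 residual degrees of freedom). Correlations and their permutations used numpy 2.4.6, with ranks from scipy 1.17.1. Scripts were tested on simulated data.

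The members and lists were chosen with earlier results of these data known. Named were all members, up to 4 called genes per pathway list, 5 neighbours on each side of Myc and Mycn, and the 5 genes most like each. Mxd3, Mlxip, Mga, Kat5, Ruvbl1, Sin3a, Pim1, Eif4e, Arrdc4, Ccnd2 and the cell type markers were added after their values were seen. List genes with no named probe set are not analysed here.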

Additional observations from a re-analysis of the deposited data

How the results depend on the processing

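Differences of the 8 genes were recomputed with quantile normalization, pseudocounts of 1 and 100, no filter or a filter at 500 (which left Mxd1 untested), other probe sets or their mean, an intensity trend, the m tumours alone (not for m against c), without osteosarcomas 6 and 9, and without each osteosarcoma. The count of called members stayed 0 in all 3 comparisons, and that of relations passing adjustment stayed 0. The lowest adjusted p for a member was 0.0675 for osteosarcoma against mc3T3 (Mxi1), 0.0571 for the labelled rhabdomyosarcoma against osteosarcoma (Mxd4, range 0.0571 to 0.375) and 0.499 for m against c tumours. Adjusted p ran from 0.0899 to 0.208 for Myc against mc3T3, and for the labelled rhabdomyosarcoma from 0.0941 to 0.226 for Max and 0.105 to 0.263 for Mnt.

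Directions turned only for Mlx, Mxd4 and Mycn, none of them a call, and the cause was not tested. Against mc3T3, Mlx was 0.05 with the mean of its probe sets and 0.25 on its other probe set, and Mxd4 was -0.82 on its dimmest tested probe set. For the labelled rhabdomyosarcoma, Mycn was 0.01 with quantile normalization, 0.17 with a pseudocount of 1, 0.09 without osteosarcomas 6 and 9, and -0.14 to 0.20 without each osteosarcoma, with 0.20 without osteosarcoma 7. For m against c tumours, Mxd4 was -0.05 with quantile normalization and -0.08 with the mean of its probe sets, -0.01 and -0.22 on its other probe sets, and -0.17 to 0.25 without each osteosarcoma; Mycn was -0.57 to 0.57 without each, with 0.57 without osteosarcoma 7 and 0.06 without osteosarcoma 12. The relations without osteosarcoma 7, the pairs of members and, for m against c, the filter at 500, the trend, the other probe sets and the left-out tumours were chosen after seeing the data. No paired analysis was possible because the labels give no replicate numbers. Signals under 200, as in most Mycn values, cannot be told from background.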

Other observations

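Osteosarcoma 12, picked after its values were seen, had the lowest Myc signal of the osteosarcomas (991) and the lowest Mxd1 signal on the brightest probe set (69.3); the other 2 Mxd1 probe sets, under 200 on every array, were highest there (135 and 33.6). It also had their lowest Myc target level (-0.21) and cell cycle level (-1.27), each a mean of centred log2 values, and the highest level of the Mondo targets Txnip and Arrdc4 (1.57). Its bone matrix level (0.46) and its beta-actin 3' to 5' ratio (2.13) were the highest of the 12. No test was made on this tumour, and the part of RNA quality in these values was not tested.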
